A study of Mus musculus with 2 samples.

Results

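Inflammasome and NOD-like sensor genes were read in neutrophils from mouse spleen. The set holds 10 genes, Nlrp3, Nlrp12, Nlrp1b, Nlrc4, Nlrc5, Nod1, Nod2, Aim2, Pycard and Nlrx1, chosen by gene symbol from a list, and all 10 were found among the 55536 Ensembl genes of the gene tables. The samples were primary neutrophils of adult, virgin male B6CASTF1/J mice aged 65 days. These mice are first-generation hybrids (mother C57BL/6, father CAST/EiJ), so both parental genomes are present, while reads were assigned on the mm10 reference; how CAST/EiJ reads were placed was not tested. No treatment is named, and the labels give 1 group of 2 libraries of total RNA, biological replicates 1 and 2, each prepared from 300 ng with ERCC spike-ins. The donor identifier of both libraries is the same, so separate animals are not shown, and differences between the libraries may be technical. Every p-value below sets the difference between these libraries against counting error alone and uses no estimate of their spread. How the cells were isolated is not given in the sources used here.

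NOD-like receptors are cytosolic proteins that respond to microbial products or to cell damage. Some of them, together with the DNA sensor AIM2, assemble inflammasomes, in which the adaptor ASC (encoded by Pycard) links the sensor to caspase-1, which then matures interleukin-1β and cleaves gasdermin D. Others signal to NF-κB through RIPK2, control transcription of MHC class I genes or act at mitochondria, and neutrophils are a known source of interleukin-1β in infected tissue.

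Replicate 1 held 18387963 expected counts and replicate 2 held 18090108. Levels are TPM (transcript abundance scaled to a fixed total per library) of the deposited gene table, which has the column layout of RSEM and is per length. A second deposited quantification with the column layout of kallisto was summed per gene, and its values are named as kallisto TPM. Protein-coding genes took 32.8% (replicate 1) and 45.4% (replicate 2) of the TPM, so a TPM can move between the libraries with the noncoding share. Neutrophil markers were high, with 10 of 10 at or above 10 TPM and summed levels of 32471 TPM (replicate 1) and 66598 TPM (replicate 2). Of the 10 monocyte and macrophage markers 6 reached 1 TPM in both libraries, and the 10 summed to 138 and 198 TPM. C1qa, C1qb, C1qc and Marco stayed at or below 0.20 TPM. Csf1r stood at 68.6 TPM (replicate 1) and 80.5 TPM (replicate 2), Ccr2 at 32.9 and 47.1 TPM and Fcgr4 at 18.8 and 44.9 TPM. Adgre1 stood at 7.61 and 10.6 TPM, Vcam1 at 6.67 and 8.02 TPM and Cx3cr1 at 3.22 and 6.69 TPM. None of the 7 T and NK cell markers reached 1 TPM in both libraries, and Ncr1 had no count. B cell markers summed to 4.97 and 17.6 TPM in replicates 1 and 2, dendritic cell markers to 22.9 and 37.8 TPM, and eosinophil and basophil markers to 40.6 and 60.1 TPM. The part of these cells in the values below was not tested, and in bulk RNA fewer cells of a type and less RNA per cell cannot be told apart.

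The levels of the 10 genes address which sensors splenic neutrophils carry as RNA. All 10 reached 1 TPM in both libraries, where 43.3% of the 22028 protein-coding genes did so, and 6 reached 10 TPM. The genes were chosen with earlier results of these data known, so this count describes them and is not a test. Of 24 other NLR and inflammasome sensors listed below, 5 reached 1 TPM in both libraries. Within the set Nlrp3 stood far above the others. It held 64.4% of the summed TPM of the 10 genes in replicate 1 (301 TPM in all). In replicate 2 it held 66.1% (348 TPM in all). The median of the 10 was 15.1 TPM (replicate 1) and 17.7 TPM (replicate 2), and that of the 9528 protein-coding genes at or above 1 TPM was 10.7 and 12.9 TPM. By deposited TPM 7 of the 10 were higher in replicate 2, as were 79.7% of those 9528 genes, but with TPM rescaled over protein-coding genes alone 9 of the 10 were higher in replicate 1 and 25.4% of the 9528 genes were higher in replicate 2, so the direction between the libraries turns with the scaling. The deposited TPM intervals, whose level is not given in the sources used here, did not overlap between the libraries for Nlrp3, Nlrp12 and Nlrx1 and overlapped for the other 7 genes.

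**Figure D1:**
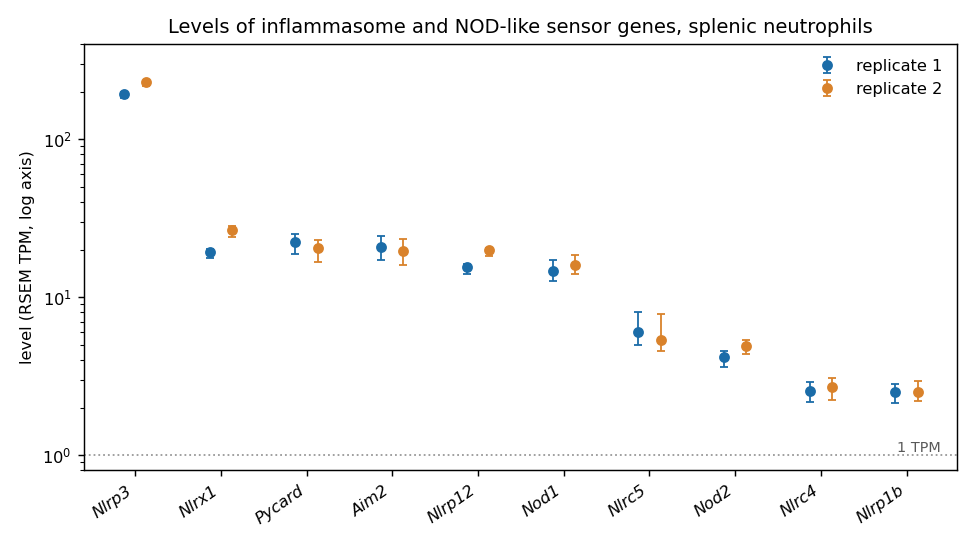
Level of each gene in TPM (log axis) in replicate 1 (blue) and replicate 2 (orange), ordered by mean; bars are the interval bounds deposited with each TPM. Nlrp3, at 194 and 230.2 TPM, stands above the other 9 genes, which lie between 2.49 and 26.7 TPM.

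Nlrp3 encodes the sensor of the most studied inflammasome, which responds to potassium efflux and many forms of cell stress. Nlrp3 (ENSMUSG00000032691.14, mm10 chromosome 11, 59541568 to 59566956, plus strand) held 13504 expected counts and 194 TPM in replicate 1 and 13634 counts and 230.2 TPM in replicate 2 (212 ± 25.6 TPM, SD, n = 2). Counts were nearly equal. The deposited TPM was higher in replicate 2, with intervals of 183 to 198 TPM in replicate 1 and 217 to 234 TPM in replicate 2, while TPM over protein-coding genes alone was lower there, at 591 in replicate 1 and 507 in replicate 2. The mean level ranked at percentile 98.8 of all protein-coding genes. The kallisto level was 173 and 188 TPM.

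Nlrp3 has 3 annotated transcripts, all protein-coding. Nlrp3-201 and Nlrp3-202 hold the same coding exons (3099 nt) and begin 1118 nt apart, with 36 exon bases particular to Nlrp3-201, 124 to Nlrp3-202 and 3897 shared. Nlrp3-202 led in both libraries by both quantifications, while the split differed. By kallisto Nlrp3-201 stood at 65.90 TPM in replicate 1 and 0.00 TPM in replicate 2, and Nlrp3-202 at 69.42 and 171.52 TPM. By RSEM Nlrp3-201 stood at 28.62 TPM in replicate 1 and 24.22 TPM in replicate 2, and Nlrp3-202 at 123.79 and 156.22 TPM. Nlrp3-201 thus had a level above 0.00 TPM in both libraries by RSEM and in replicate 1 alone by kallisto. Of the 3834 windows of 100 bases in Nlrp3-201, 35 occur in no other transcript of the 10 genes, and of the 3922 in Nlrp3-202, 71 do. The short transcript Nlrp3-203 (676 nt) held no such window and stood at 37.25 and 16.92 TPM by kallisto and 41.57 and 49.79 TPM by RSEM.

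The 250 bases before each Nlrp3 start site are shown because these sites separate the transcripts whose split differed. The sequences are RefSeq promoter windows on GRCm38.p6, plus strand, at chr11:59541319-59541568 for the upstream site and chr11:59542436-59542685 for the downstream site, printed 5′ to 3′ up to the base before the RefSeq start. Capitals mark matches on either strand to any of 6 motifs.
Nlrp3 upstream start: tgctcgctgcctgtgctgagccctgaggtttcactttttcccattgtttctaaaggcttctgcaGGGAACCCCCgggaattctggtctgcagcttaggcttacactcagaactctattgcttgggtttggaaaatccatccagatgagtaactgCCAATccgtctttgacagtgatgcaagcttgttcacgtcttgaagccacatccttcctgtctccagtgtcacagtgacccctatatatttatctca
Nlrp3 downstream start: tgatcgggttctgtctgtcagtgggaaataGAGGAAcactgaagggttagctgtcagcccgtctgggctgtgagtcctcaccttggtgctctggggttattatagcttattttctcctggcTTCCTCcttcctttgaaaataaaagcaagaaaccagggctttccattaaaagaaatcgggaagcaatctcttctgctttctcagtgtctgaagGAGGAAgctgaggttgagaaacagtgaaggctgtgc

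The upstream window held the CCAAT box (CCAAT) at -96 to -92 and an NF-kB pattern (GGG, any pair of bases, TT, any base, then CC) at -186 to -177, counted from the RefSeq start. The downstream window held 3 matches to the PU.1 core (GAGGAA), at -220 to -215, -129 to -124 and -36 to -31. No match in these windows overlapped another. Neither window held the TATA box (TATAAA), the AP-1 motif (TGANTCA) or the STAT motif (TTCNNNGAA). Of the 32851 windows of the same length in the table, 33.8% held CCAAT, 4.11% the NF-kB pattern, 23.3% GAGGAA, 12.4% TATAAA, 6.75% TGANTCA and 7.02% TTCNNNGAA. A match is a run of letters and is not shown to be a site. The table matched 9 of the 10 genes with 13 windows; Nlrc5 has none there. Of the 13 windows 4 held GAGGAA, 4 TTCNNNGAA, 3 CCAAT and 1 the NF-kB pattern. The Nlrx1 windows overlap, since their starts lie 108 nt apart, and the same TTCNNNGAA match (TTCCTTGAA) was counted in each.

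Aim2 encodes a cytosolic DNA sensor that, like Nlrp3, recruits ASC. Aim2 (ENSMUSG00000037860.15, chromosome 1, 173350879 to 173466040, plus strand) held 360 counts and 20.6 TPM in replicate 1 and 334 counts and 19.6 TPM in replicate 2 (20.1 ± 0.778 TPM, SD, n = 2). The kallisto level was 18.9 and 15.9 TPM. The gene level was close in both libraries, while the split between its 7 transcripts changed with the quantification. By kallisto the longest transcript, Aim2-202 (2839 nt), took 17.7% of the Aim2 TPM in replicate 1 and 38.6% in replicate 2, while by RSEM it took 2.81% and 3.02%. Aim2-204 (2079 nt) has the same coding length of 1062 nt and took 9.64% and 5.03% by kallisto and 25.4% and 32.3% by RSEM. Aim2-203, an annotated fragment of 326 nt, stood at 4.74 and 0.00 TPM by kallisto and led by RSEM at 7.59 and 6.77 TPM. The Aim2-203 levels rest on few counts, 37 and 28 by RSEM. The gene on the opposite strand that overlaps Aim2, Cadm3, held 4 and 11 counts.

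Nlrc4 encodes the inflammasome protein that NAIP receptors activate on binding flagellin or type III secretion proteins. Nlrc4 (ENSMUSG00000039193.9, chromosome 17, 74425438 to 74459142, minus strand) held 216 counts and 2.56 TPM in replicate 1 and 187 counts and 2.70 TPM in replicate 2 (2.63 ± 0.0990 TPM, SD, n = 2). The kallisto level was 2.57 and 2.68 TPM. The gene total was thus low and close by both quantifications, while its transcripts were divided in different ways. The full coding transcript Nlrc4-201 took 85.9% of the Nlrc4 TPM in replicate 1 and 81.3% in replicate 2 by kallisto, and 52.5% and 44.8% by RSEM. Nlrc4-202, annotated as a target of nonsense-mediated decay, took 14.1% and 18.7% by kallisto, and 47.5% and 55.2% by RSEM. By RSEM it held 80 of the 216 Nlrc4 counts of replicate 1 and 83 of the 187 of replicate 2. A pseudogene on the same strand within Nlrc4 held 2.07 and 0 counts.

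These Nlrc4 transcripts differ in part at the junction where the shared exon ending at 74447958 is joined to the next exon, shown here. The sequences are from GENCODE M21 transcripts on mm10, minus strand, within chr17:74447081-74447987, printed 5′ to 3′. Capitals mark the 14 bases that Nlrc4-201 includes and Nlrc4-202 lacks.
Nlrc4-201: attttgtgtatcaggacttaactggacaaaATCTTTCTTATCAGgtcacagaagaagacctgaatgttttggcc
Nlrc4-202: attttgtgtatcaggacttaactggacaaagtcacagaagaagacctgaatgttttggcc

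The annotated coding length is 3072 nt for Nlrc4-201 and 348 nt for Nlrc4-202, which continues into the same last exon but ends earlier in it. That exon spans 1697 nt in Nlrc4-201 and 318 nt in Nlrc4-202. Nlrc4-201 also has a first exon of 137 nt that Nlrc4-202 lacks. Windows of 100 bases that occur in no other transcript of the 10 genes numbered 1605 of 4630 in Nlrc4-201 and 99 of 3011 in Nlrc4-202. The 14 bases also occur in Nlrc4-203, so windows over them are not among the 1605.

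Nlrp1b encodes a rodent sensor that in some mouse strains is activated when anthrax lethal toxin cleaves it, and its sequence differs between strains. Nlrp1b (ENSMUSG00000070390.12, chromosome 11, 71153102 to 71230733, minus strand) held 217.16 counts and 2.49 TPM in replicate 1 and 190.37 counts and 2.51 TPM in replicate 2 (2.50 ± 0.0141 TPM, SD, n = 2). By this TPM it was the lowest of the 10 genes, and it was the only one with counts that were not whole, which means that some reads were divided with another gene. The deposited spread of that assignment was 1.21 counts in replicate 1 and 0.98 counts in replicate 2. Of its 6296 distinct windows of 100 bases, 3 also occur in its neighbour Nlrp1a, and none of the other 9 genes shared such a window with another gene. Nlrp1a stood at 2.54 and 3.85 TPM. By kallisto Nlrp1b stood at 2.99 and 3.47 TPM, above Nlrc4, which was then the lowest. Nlrp1b-205, annotated for nonsense-mediated decay, took 56.5% and 27.7% of the Nlrp1b TPM by kallisto and 41.6% and 45.2% by RSEM, and was outranked only by Nlrp1b-202 in replicate 2 by kallisto (46.9%). Its coding transcripts held between 0 and 73 counts each by RSEM.

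Pycard encodes the adaptor ASC. Pycard (ENSMUSG00000030793.4, chromosome 7, 127989708 to 127993867, minus strand) held 424 counts and 22.3 TPM in replicate 1 and 477 counts and 20.4 TPM in replicate 2 (21.4 ± 1.32 TPM, SD, n = 2). By kallisto it stood at 17.3 and 15.6 TPM. Counts were higher and TPM lower in replicate 2, where the effective length of the gene was 1256 nt, against 872 nt in replicate 1. That length follows the split between its transcripts. The short Pycard-202 (493 nt) stood at 19.07 TPM in replicate 1 and 15.11 TPM in replicate 2 by RSEM, from 163 and 110 counts. The long Pycard-201 (3800 nt) stood at 3.23 and 5.34 TPM, from 261 and 367 counts. Most Pycard counts thus lay on the long transcript and most Pycard TPM on the short one. The entry Gm45205, on the opposite strand of the same region, held 142 counts in replicate 1 and 115 in replicate 2; the library kit is directional per the labels, but whether counting used strand is not given in the sources used here.

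Nod1 and Nod2 encode sensors of peptidoglycan fragments that signal through RIPK2. Nod1 (ENSMUSG00000038058.14, chromosome 6, 54923949 to 54972612, minus strand) held 797 counts and 14.6 TPM in replicate 1 and 882 counts and 15.9 TPM in replicate 2 (15.2 ± 0.912 TPM, SD, n = 2). Nod2 (ENSMUSG00000055994.15, chromosome 8, 88647315 to 88688474, plus strand) held 361 counts and 4.15 TPM in replicate 1 and 403 counts and 4.93 TPM in replicate 2 (4.54 ± 0.552 TPM, SD, n = 2). Nod1 exceeded Nod2 by 1.79 on the log2(TPM + 0.1) scale in replicate 1 and by 1.67 in replicate 2, a mean difference of 1.73 ± 0.09 (SD, n = 2), which is larger than its spread. Kallisto gave 16.4 and 19.8 TPM for Nod1 and 3.69 and 4.79 TPM for Nod2.

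The Nod1 transcripts Nod1-201 and Nod1-202 share their coding exons and start 951 nt apart. By kallisto Nod1-201 stood at 5.02 TPM in replicate 1 and 3.70 TPM in replicate 2, and Nod1-202 at 1.97 and 6.39 TPM. By RSEM Nod1-201 stood at 6.90 and 5.82 TPM, and Nod1-202 at 1.11 and 5.18 TPM. Nod1-202 was therefore higher in replicate 2 by both quantifications. Part of the Nod1 TPM lay on shorter transcripts. A noncoding transcript of 546 nt led in replicate 1 by kallisto. It took 36.8% of the Nod1 TPM in replicate 1 and 25.3% in replicate 2 by kallisto, and 33.6% and 20.5% by RSEM. These shares rest on few counts, 48 and 27 by RSEM. A coding transcript of 773 nt took 19.2% and 19.7% by kallisto, and 3.57% and 6.36% by RSEM. Nod2-203 was the leading Nod2 transcript in both libraries and by both quantifications, with 70.3% of the Nod2 TPM in replicate 1 and 56.1% in replicate 2 by kallisto, and 57.7% and 83.4% by RSEM. The retained-intron transcript Nod2-204 took 27.1% and 7.97% by kallisto, and 27.6% and 7.91% by RSEM. For this transcript the quantifications gave close shares and the libraries did not.

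Nlrp12 encodes an NLR described mainly as a brake on inflammatory signalling. Nlrp12 (ENSMUSG00000078817.4, chromosome 7, 3218784 to 3249740, minus strand) held 1311 counts and 15.6 TPM in replicate 1 and 1378 counts and 20.0 TPM in replicate 2 (17.8 ± 3.15 TPM, SD, n = 2). The deposited intervals, 14.1 to 16.1 TPM in replicate 1 and 18.2 to 20.5 TPM in replicate 2, did not overlap, and kallisto gave 13.1 and 17.4 TPM, while TPM over protein-coding genes alone was 47.4 and 44.1. Nlrp12 has 2 annotated transcripts, the coding Nlrp12-201 (6928 nt) and the retained-intron Nlrp12-202 (2742 nt). Nlrp12-202 led in both libraries by both quantifications. It stood at 8.30 TPM in replicate 1 and 11.79 TPM in replicate 2 by kallisto and at 11.03 and 14.92 TPM by RSEM, while Nlrp12-201 stood at 4.80 and 5.64 TPM by kallisto and at 4.53 and 5.09 TPM by RSEM. Nlrp12-202 thus took 63.4% to 74.6% of the Nlrp12 TPM, though only 39.3% to 53.1% of its counts, since it is the shorter transcript. Of its exon bases 2125 are shared with Nlrp12-201 and 490 lie in the intron that follows the large coding exon.

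The point where these transcripts part is shown because it decides which reads count for the coding one. The sequences are from GENCODE M21 transcripts on mm10, minus strand, printed 5′ to 3′, with the last 30 shared exon bases in lower case. Capitals mark the next 30 bases, which for Nlrp12-201 lie in the next coding exon (chr7:3235295-3235324) and for Nlrp12-202 in the intron (chr7:3239800-3239829).
Nlrp12-201: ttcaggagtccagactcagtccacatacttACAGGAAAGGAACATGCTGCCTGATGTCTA
Nlrp12-202: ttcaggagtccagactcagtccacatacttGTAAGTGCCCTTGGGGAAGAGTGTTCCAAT

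Total RNA also holds unspliced precursors, and whether the intron reads came from these or from a stable RNA was not tested. Of 2643 windows of 100 bases in Nlrp12-202, 617 occur in no other transcript of the 10 genes, against 4803 of 6829 in Nlrp12-201.

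Nlrc5 encodes a transactivator of MHC class I genes. Nlrc5 (ENSMUSG00000074151.13, chromosome 8, 94434356 to 94527272, plus strand) held 298 counts and 5.99 TPM in replicate 1 and 302 counts and 5.33 TPM in replicate 2 (5.66 ± 0.467 TPM, SD, n = 2). By kallisto it stood at 3.76 and 3.35 TPM, against 5.99 and 5.33 TPM by RSEM, a difference of -0.66 and -0.65 on the log2 scale that was the largest between the quantifications among the 10 genes. The full-length Nlrc5-207 (7578 nt) took 33.4% of the Nlrc5 TPM in replicate 1 and 48.0% in replicate 2 by kallisto, and 15.9% and 32.0% by RSEM. In counts it took 76.1% and 79.3% by kallisto and 51.9% and 78.7% by RSEM. By RSEM the short noncoding Nlrc5-208 (557 nt) led in replicate 1 at 1.43 TPM from 14 counts, so the leading transcript by TPM rests on few counts there. The opposite-strand gene 9330175E14Rik, which overlaps Nlrc5, held 20 counts in replicate 1 and 55 in replicate 2.

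Nlrx1 encodes a mitochondrial NLR that interacts with the antiviral adaptor MAVS. Nlrx1 (ENSMUSG00000032109.15, chromosome 9, 44252717 to 44268599, minus strand) held 1440 counts and 19.2 TPM in replicate 1 and 1548 counts and 26.7 TPM in replicate 2 (22.9 ± 5.33 TPM, SD, n = 2). Its SD was the largest of the 10 relative to its mean, and kallisto gave 17.7 and 25.4 TPM, while TPM over protein-coding genes alone was 58.4 in replicate 1 and 58.8 in replicate 2. The coding exons of Nlrx1-201, Nlrx1-202 and Nlrx1-203 are the same, and these transcripts differ at their 5′ ends. By kallisto Nlrx1-201 stood at 4.94 TPM in replicate 1 and 14.11 TPM in replicate 2, Nlrx1-202 at 8.0 and 1.05 TPM and Nlrx1-203 at 1.51 and 3.56 TPM. By RSEM Nlrx1-201 stood at 3.34 and 7.03 TPM, Nlrx1-202 at 0.00 and 14.21 TPM and Nlrx1-203 at 14.04 and 0.00 TPM. The leading Nlrx1 transcript was therefore Nlrx1-202 and Nlrx1-201 by kallisto, and Nlrx1-203 and Nlrx1-202 by RSEM, in replicates 1 and 2. Windows of 100 bases in no other transcript of the 10 genes numbered 94 of 3480 in Nlrx1-202, 97 of 3522 in Nlrx1-203 and 184 of 3570 in Nlrx1-201.

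**Figure D2:**
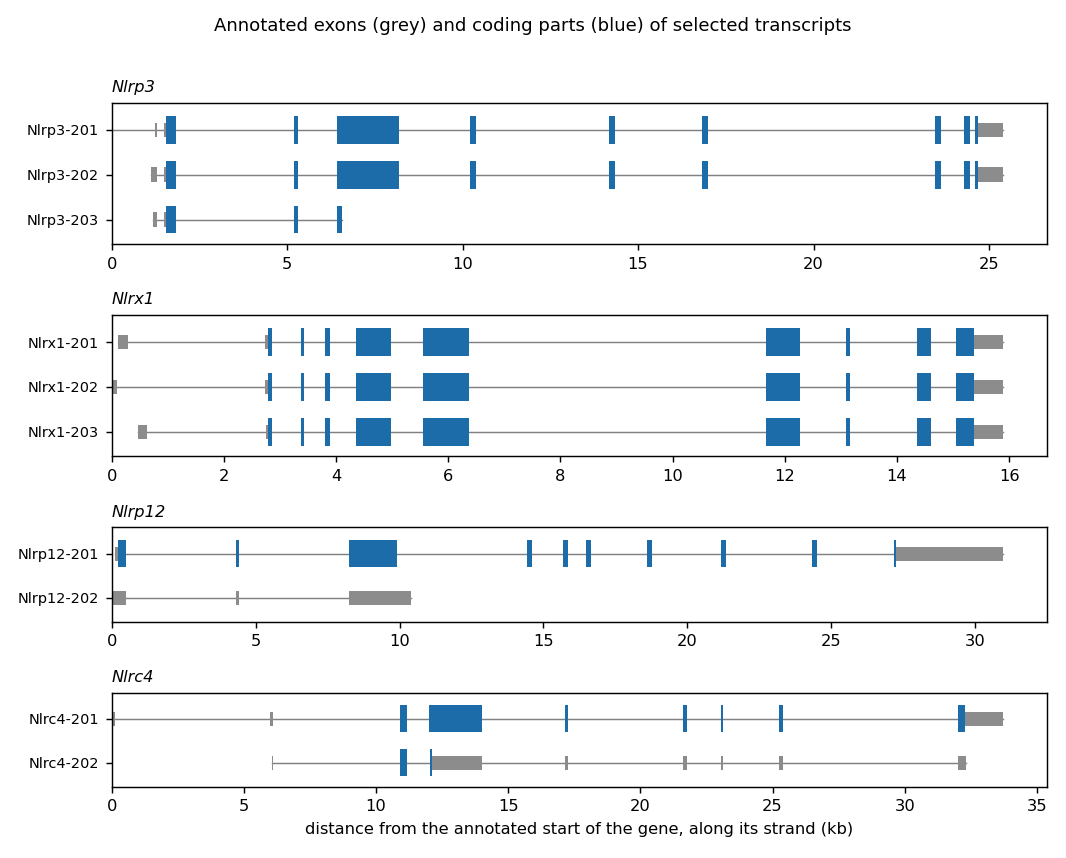
Annotated exons (grey) and coding parts (blue) of selected transcripts of Nlrp3, Nlrx1, Nlrp12 and Nlrc4, against distance from the gene's annotated start in kb. Nlrp3-201 and Nlrp3-202, and likewise Nlrx1-201, Nlrx1-202 and Nlrx1-203, have the same coding exons and different noncoding 5′ exons, Nlrp12-202 ends in the intron after the large coding exon, and the coding part of Nlrc4-202 stops at 348 nt.

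The transcript tables ask whether the same transcript leads in every library and by each quantification. Of the 47 annotated transcripts, 5 had an expected count of 0 and a kallisto count under 0.5 in both libraries. The leading transcript by TPM was the same in both libraries and both quantifications for 4 of the 10 genes, Nlrp3, Nlrp12, Nod2 and Pycard. Kallisto and RSEM TPM lay over 2-fold apart, with the same sign in each library, in 0 of the 10 genes and in 13.2% of 13328 genes.

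**Figure D3:**
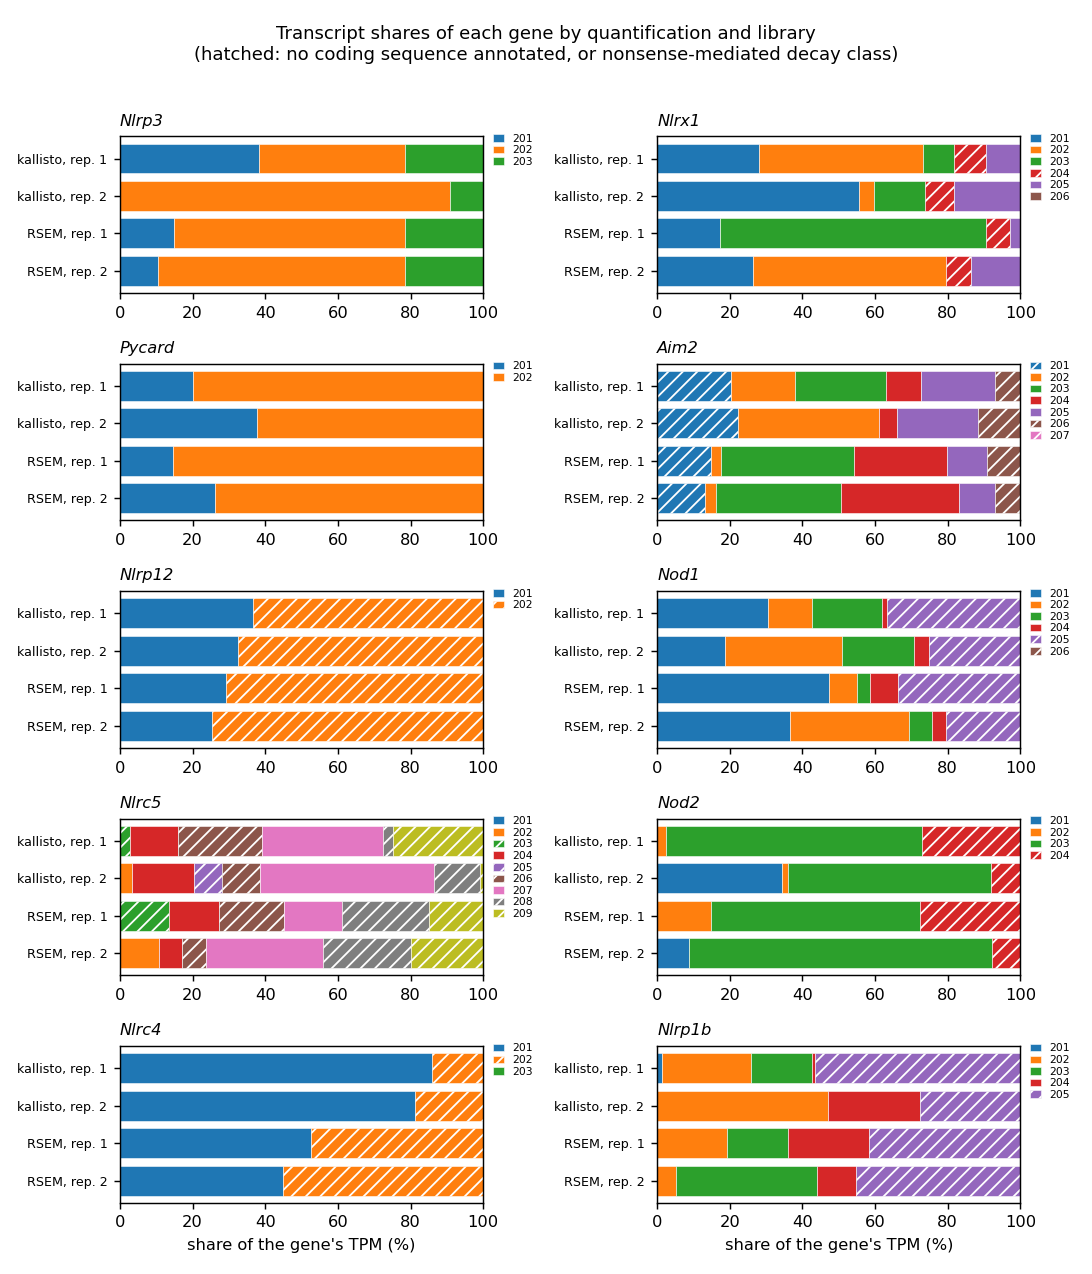
Share of each gene's TPM taken by each annotated transcript (number after the gene name), by kallisto in replicates 1 and 2 and by RSEM in replicates 1 and 2; hatching marks transcripts with no annotated coding sequence or of the nonsense-mediated decay class. The bars of Nlrp12 look alike in all 4 rows, while those of Nlrx1, Aim2 and Nlrp3 change between rows.

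The order of levels was Nlrp3, Nlrx1, Pycard, Aim2, Nlrp12, Nod1, Nlrc5, Nod2, Nlrc4 and Nlrp1b by mean TPM. A neighbouring pair was taken to differ beyond its spread by a rule on the log2(TPM + 0.1) difference. That difference had to have the same sign in both libraries and a mean larger than its SD, and 7 of 9 pairs met this. The pairs were ordered by the mean TPM of the same libraries, so the rule describes their values and is not a test. Nlrp3 exceeded Nlrx1 by 3.22 ± 0.16 (SD, n = 2), the widest step, and Nod1 exceeded Nlrc5 by 1.41 ± 0.20. The pairs that did not differ were Nlrx1 and Pycard (0.08 ± 0.43) and Aim2 and Nlrp12 (0.19 ± 0.31). Of the 7 pairs, 3 had small steps, with deposited intervals that overlapped in both libraries: Pycard and Aim2 (0.09 ± 0.03), Nlrp12 and Nod1 (0.21 ± 0.17) and Nlrc4 and Nlrp1b (0.07 ± 0.04). By gene TPM the genes therefore fell into Nlrp3 alone, a middle group from Nlrx1 to Nod1 within which order is weak, and 4 low genes. In the middle group the TPM of Pycard and Aim2 lay in good part on short transcripts. By RSEM Pycard-202 (493 nt) took 85.5% and 73.9% of the Pycard TPM in replicates 1 and 2. Aim2-203 (326 nt) took 36.8% and 34.6% of the Aim2 TPM. With kallisto TPM 3 of these 7 pairs kept their order beyond the spread (Nlrp3 and Nlrx1, Nod1 and Nlrc5, Nod2 and Nlrc4). The order was reversed in both libraries for 3, with Aim2 above Pycard, Nod1 above Nlrp12 and Nlrp1b above Nlrc4, and Nlrc5 and Nod2 had differences of mixed sign (0.02 and -0.50). In the order that kallisto itself gives, 5 of 9 neighbouring pairs differed beyond their spread.

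The libraries were compared gene by gene to see whether any of the 10 genes varied beyond counting error. This test compares these 2 libraries and not conditions. It allows for counting error alone, and the libraries differed by more (common biological coefficient of variation 0.164). A very small p at high counts therefore does not show a difference beyond the spread between libraries. By the exact binomial test with Benjamini-Hochberg adjustment over 15118 genes, 0 of the 10 genes passed an adjusted p of 0.05, and 0 had an unadjusted p under 0.05. Of all genes tested 32.1% passed, with 15.0% being higher in replicate 1 and 17.0% in replicate 2. A summed count of 403 was the fewest of any of the 10, and of the 7287 genes that reached it 46.7% passed, a restriction chosen after the values were seen. Ratios of replicate 1 over replicate 2 ran from -0.15 for Pycard to 0.22 for Nlrc4 on the log2 scale. The Nlrc4 interval was -0.06 to 0.51, the Nlrp3 interval -0.03 to 0.04 and the Pycard interval -0.35 to 0.04, for counting error at 95%. The lowest adjusted p by the exact binomial test was 0.157, for Nod1 (log2 ratio -0.13, interval -0.27 to 0.01). Nlrp1b (0.21), Aim2 (0.12) and Nlrp3 (0.00) also had ratios at or above 0, while Nod2 (-0.14), Nlrx1 (-0.09), Nlrp12 (-0.06) and Nlrc5 (-0.00) lay at or below it. A p that misses the threshold does not show that the libraries are alike; the widest interval, that of Nlrp1b, ran from -0.08 to 0.50.

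The absolute log2 ratio had a median of 0.13 in the 10 genes, 0.24 in all genes tested and 0.16 in those that reached 403 counts. These ratios use TMM scaling and are relative to the bulk of genes. With scaling to the ERCC totals, which held 77771 counts in replicate 1 and 47031 in replicate 2, the median of all genes moved by -0.74. With that scaling all 10 genes passed as higher in replicate 2. Of the 15118 genes tested 75.1% passed in either direction, and 11163 were higher in replicate 2. With kallisto estimated counts 5 of the 10 passed, Nlrp3, Nod1, Nod2, Pycard and Nlrx1, all higher in replicate 2. Of the 19305 genes tested that way 31.1% passed in either direction, and 3413 were higher in replicate 2. The kallisto ratio of Nlrp3 was -0.08, against 0.00 with expected counts, and that of Aim2, which did not pass, was -0.13, against 0.12. With DESeq2 size factors, total counts, no count minimum or a minimum of 10 in each library, 0 of the 10 passed.

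**Figure D4:**
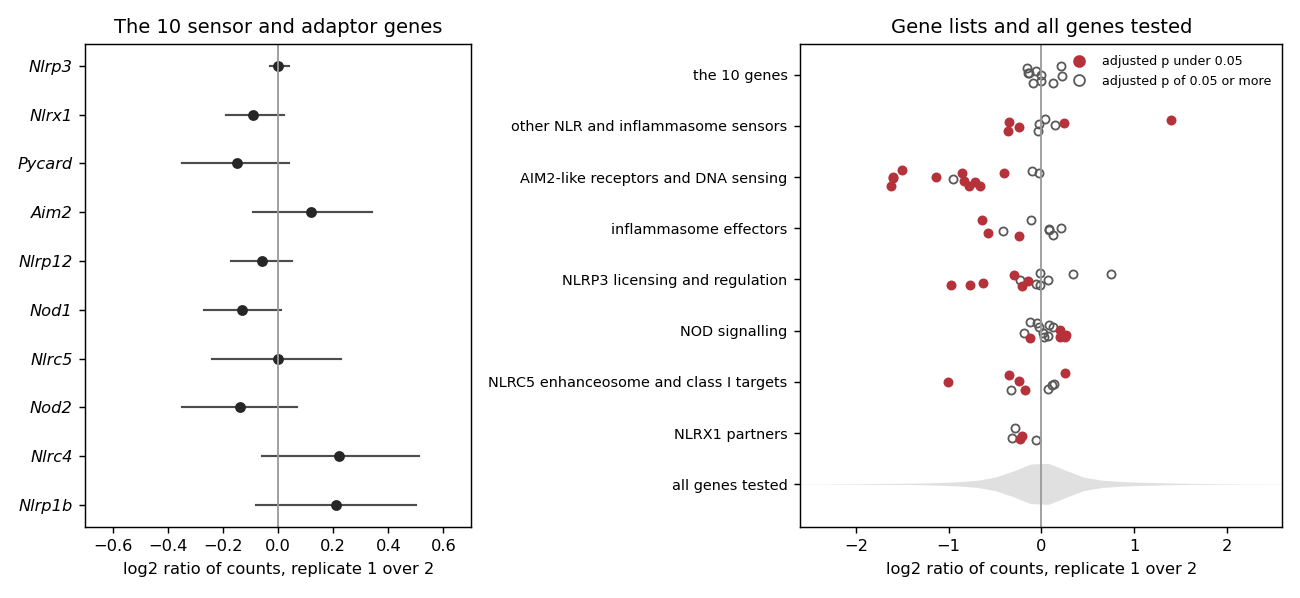
Left, log2 ratio of expected counts, replicate 1 over replicate 2 with TMM scaling, for each of the 10 genes with its exact counting interval at 95%. Right, the same ratio for the 10 genes, 7 related gene lists and all 15118 genes tested (grey, whose range exceeds the axis), with genes at an adjusted p under 0.05 in red; with ERCC scaling all 10 genes lie below 0.

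Partners of the sensors were read in 7 lists, written with earlier results of these data known, so their counts describe the lists. Of their 90 genes in all, 60 reached 1 TPM in both libraries. The median of the 90 was 5.36 and 9.35 TPM in replicates 1 and 2, and that of all protein-coding genes 0.33 and 0.40 TPM. Of the 73 that could be tested, 37 (50.7%) passed the binomial test, 7 higher in replicate 1 and 30 in replicate 2, beside 32.1% of all genes tested and 46.7% of those that reached 403 counts. Every marker that passed was also higher in replicate 2. Of those tested, these were 10 of 10 neutrophil, 4 of 6 B cell, 4 of 6 monocyte and macrophage, 3 of 6 eosinophil and basophil, 2 of 6 dendritic cell and 0 of 1 T and NK cell markers, with median log2 ratios of -0.40, -1.60, -0.18, -0.26, -0.50 and -1.08. The B cell marker Cr2 had a ratio of 1.24 and did not pass. The part of these cells in the counts above was not tested.

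**Figure D5:**
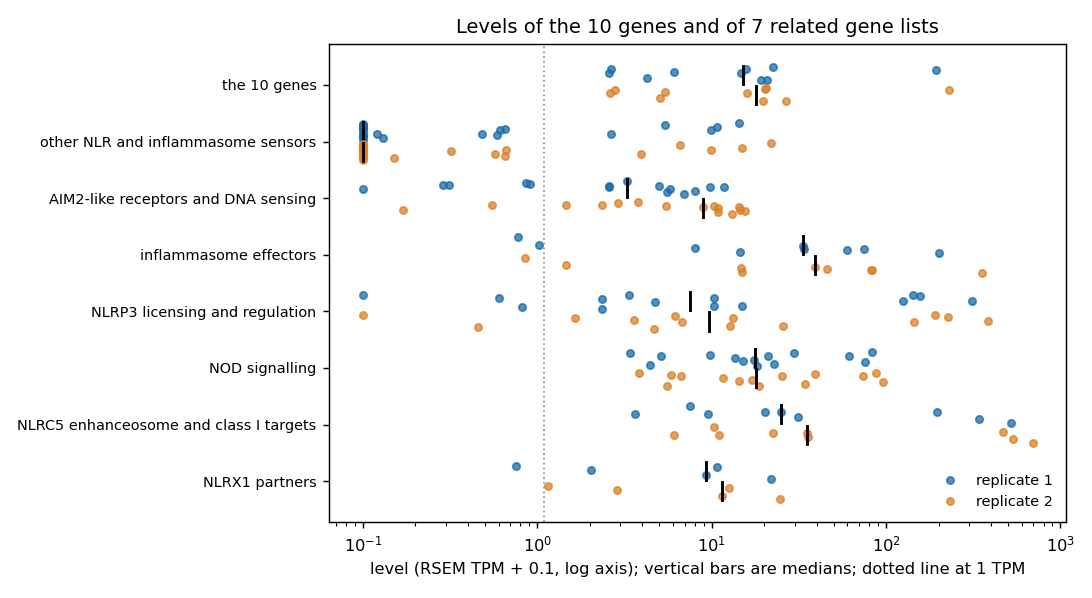
Levels (TPM + 0.1, log axis) of the 10 genes and of each gene in 7 related lists, in replicate 1 (blue) and replicate 2 (orange), with medians as vertical bars and a dotted line at 1 TPM. The median of the other NLR list lies at 0, while all 14 NOD signalling genes lie above 1 TPM.

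Among the effectors, 7 of 9 genes reached 1 TPM in both libraries and 3 passed the test, all higher in replicate 2. Il1b, which encodes pro-interleukin-1β, stood at 202 and 355 TPM in replicates 1 and 2. Its log2 count ratio was -0.58 (exact binomial test, adjusted p = 1.65e-112). The p-values of these effectors are set against counting error alone, which the libraries exceeded. Gsdmd, the pore-forming gasdermin D, stood at 74.4 and 83.5 TPM, and Ninj1, which ruptures the plasma membrane late in lytic death, at 59.5 and 82.3 TPM. Casp1, the protease that the adaptor recruits, stood at 7.91 and 14.7 TPM, with a log2 count ratio of -0.64 (exact binomial test, adjusted p = 4.58e-07); it was added outside the rule for naming genes. Nlrp3 exceeded Casp1 by 4.28 ± 0.45 and Pycard by 3.30 ± 0.26 on the log2(TPM + 0.1) scale, and Casp4, the sensor protease of the noncanonical pathway, exceeded Casp1 by 1.85 ± 0.31. Il1a was the lowest effector, at 0.68 and 0.75 TPM. Pycard exceeded Casp1 by 0.98 ± 0.71.

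Of the 14 genes that license or regulate NLRP3, 11 reached 1 TPM in both libraries, and 6 passed, all higher in replicate 2. Txnip, a thioredoxin-binding protein, stood at 311 and 386 TPM in replicates 1 and 2, Tnfaip3, the deubiquitinase A20, at 156 and 226 TPM and the chaperone gene Hsp90ab1 at 143 and 192 TPM. The kinase gene Nek7, required for NLRP3 assembly, stood 4.21 ± 0.04 below Nlrp3 on the log2 scale. Fbxl2, an F-box gene, was the lowest with any count, at 0.72 and 0.36 TPM.

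The list of other NLR and inflammasome sensors was mostly without expected counts. Of 24 genes 5 reached 1 TPM in both libraries and 13 were listed at 0 expected counts in both, which leaves room for up to 3 counts per library. Of these 13, kallisto gave Nlrp5 0.156 and 0.252 TPM in replicates 1 and 2 and Nlrp4a 0.00924 TPM in replicate 1, and the others 0 TPM. Naip2 stood at 14.2 and 21.7 TPM in replicates 1 and 2, Naip5 at 9.76 and 9.85 TPM, Naip6 at 5.30 and 6.46 TPM and Naip1 at 0.49 and 0.55 TPM. Naip2 and Naip5, which in mice recognise secretion-system rod protein and flagellin, exceeded Nlrc4 by 2.70 ± 0.38 and 1.86 ± 0.04 on the log2 scale. Counts of these Naip genes were not whole, so some reads were divided with other genes, and their separate levels are uncertain. Mefv, which encodes pyrin, stood at 10.6 and 14.9 TPM and Nlrp1c-ps at 0.38 and 0.47 TPM. Nlrc3 held 40 counts in replicate 1 against 15 in replicate 2, a log2 ratio of 1.40 (exact binomial test, adjusted p = 0.00317), while its kallisto TPM was 0.968 and 0.929. Of the 9 genes tested, Naip5 and Nlrc3 passed as higher in replicate 1 (log2 ratio of Naip5 0.24) and Naip2, Mefv and Nlrp1a as higher in replicate 2 (-0.36, -0.24 and -0.35). Nlrp6 was the lowest with any expected count, with 2 and 0 counts.

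The AIM2-like receptors and DNA-sensing genes had the median ratio farthest from 0 of the 7 lists, with 11 of 14 tested genes passing as higher in replicate 2 and a median log2 ratio of -0.85. Aim2 had a ratio of 0.12 and did not pass. Ifi204 stood at 5.64 and 14.5 TPM in replicates 1 and 2 (log2 ratio -1.14), Ifi207 at 2.48 and 8.85 TPM (-1.60), Ifi205 at 0.76 and 2.79 TPM (-1.62), Ifi213 at 0.81 and 2.24 TPM (-1.60) and Ifi206 at 0.21 and 1.37 TPM (-1.50). The counts of these Ifi genes were not whole, so some reads were divided with other genes, and their separate levels are uncertain. The highest genes of the list were Mndal at 9.73 and 14.2 TPM, the nuclease gene Trex1 at 7.90 and 15.4 TPM and Tmem173, which encodes STING, at 11.6 and 10.8 TPM. Ifi214 was the lowest, with 0 and 3.28 counts.

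All 14 NOD signalling genes reached 1 TPM in both libraries; 4 passed as higher in replicate 1 and 1 in replicate 2. Slc15a3, a peptide transporter of endolysosomes, stood at 75.3 and 96.0 TPM in replicates 1 and 2, the ubiquitin ligase gene Birc3 at 82.8 and 87.9 TPM and Card9, an adaptor downstream of innate receptors, at 61.1 and 73.9 TPM. Ripk2, the kinase that both NOD proteins recruit, was the lowest of the list, at 3.31 and 3.74 TPM. Nod1 exceeded Ripk2 by 2.08 ± 0.04 and Nod2 exceeded it by 0.35 ± 0.05 on the log2 scale.

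The partners and targets of NLRC5 all reached 1 TPM in both libraries (9 of 9), with 1 passing as higher in replicate 1 and 4 in replicate 2. The class I genes H2-D1 and H2-K1 stood at 522 and 342 TPM in replicate 1 and at 694 and 533 TPM in replicate 2. B2m, the class I light chain, stood at 196 and 469 TPM in replicates 1 and 2. Its log2 count ratio was -1.01 (exact binomial test, adjusted p = 1.38e-244, against counting error alone). The Nlrc5 ratio was -0.00, with an interval of -0.24 to 0.23. Rfxank, a subunit of the enhanceosome that NLRC5 joins, was the lowest, at 3.54 and 5.97 TPM. Counts of H2-D1 and H2-K1 were not whole, so some of their reads were divided with other genes.

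Of 5 partners of NLRX1, 4 reached 1 TPM in both libraries, and 2 passed, both higher in replicate 2. Uqcrc2, a subunit of respiratory complex III, stood at 21.7 and 24.7 TPM in replicates 1 and 2, the mitochondrial elongation factor gene Tufm at 10.7 and 12.5 TPM and the ubiquitin ligase gene Traf6 at 9.18 and 11.4 TPM. Fastkd5 was the lowest, at 0.66 and 1.05 TPM. Nlrx1 exceeded Mavs by 3.25 in replicate 1 and 3.22 in replicate 2 on the log2(TPM + 0.1) scale.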

How the data were processed

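Total RNA-seq of 1 group of 2 libraries was read from deposited tables. Per the files' accompanying notes the authors used mm10 with GENCODE M21; the sources used here name no aligner or program version. The gene and first transcript tables hold the deposited expected counts, TPM and FPKM, and an isoform share in percent deposited by the authors; the second transcript table holds estimated counts and TPM deposited in the kallisto layout. The members and lists were chosen with earlier results of these data known.

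Expected counts were rounded and compared by an exact two-sided binomial test (scipy 1.17.1) given TMM sizes (edgeR 4.0.16), in 15118 genes with at least 10 counts together, with Benjamini-Hochberg adjustment at 0.05. Log2 ratios add 0.5 to each count. Read sequences without molecular identifiers are not independent molecules, so intervals and the limit of 3 counts cover counting error only; the libraries differed by more (common biological coefficient of variation 0.164). The comparison was also run on simulated counts with counting error alone. That run does not show how the test behaves with the wider spread between these libraries. FPKM, DESeq2 1.42.0 size factors, ERCC totals, kallisto values and leaving out each library were alternatives. Named beside the 10 genes are, in each list, the 3 highest by mean TPM, the lowest measured, each that passed with at least 2-fold, and each Nlrp or Naip gene with at least 10 counts; Casp1, Casp4, Nek7 and Mavs were added for their role. Of the listed symbols Naip7 matched no entry, and 6 are synonyms of genes already listed. Motifs were searched on both strands of the promoter windows, and windows of 100 bases on the transcripts.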

Additional observations from a re-analysis of the deposited data

How the results depend on the processing

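The count of genes at or above 1 TPM (10), the genes over 2-fold apart between the quantifications (0) and the 60 list genes at 1 TPM (60 to 69) stayed within 1.5 times under every alternative run for them. The count of pairs beyond their spread was 5 to 7, but with kallisto TPM 3 of the 7 pairs were reversed. The 0 genes that differed between the libraries became 10 with ERCC totals and 5 with kallisto estimated counts; the cause was not tested. With ERCC totals the ratios of Nlrp3, Nlrp1b, Nlrc4 and Aim2 turned to -0.74, -0.53, -0.52 and -0.62, and with kallisto estimated counts those of Nlrp3 and Aim2 turned to -0.08 and -0.13. The Nlrp3 ratio of 0.00 also became -0.01 with DESeq2 size factors and -0.04 with total counts. The 4 genes with the same leading transcript became 5 without replicate 1 and 7 without replicate 2, when the quantifications of 1 library alone are compared, and 6 among protein-coding transcripts alone. TPM over protein-coding genes alone raised the mean level of all 10 genes, such as 549 for Nlrp3, and put 9 of the 10 higher in replicate 1, against 3 by deposited TPM. Low counts limit transcript shares, such as those of Aim2, Nlrp1b, Nlrc4 and Nlrc5. No paired analysis was possible because there is 1 group.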

Other observations

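Transcripts with no annotated coding sequence or of the nonsense-mediated decay class took very different shares of the members' TPM. The share of Nlrp12 was 63.4% in replicate 1 and 67.6% in replicate 2 by kallisto and 70.9% and 74.6% by RSEM. Across the 7885 protein-coding genes at or above 1 TPM that have such a transcript, the median share was 35.6% and 32.2% by kallisto and 31.5% and 28.7% by RSEM. Nlrp12 lay at percentiles 82.7 and 88.3 of those genes by kallisto and 90.7 and 93.5 by RSEM. Nlrx1 lay at the other end, with shares of 8.70% and 8.03% by kallisto and 6.51% and 6.92% by RSEM. For Nlrc4 the quantifications differed, with percentiles 20.5 and 31.0 by kallisto and 69.9 and 81.4 by RSEM. These percentiles describe 2 libraries and carry no test.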
